A study of Homo sapiens with 8 samples.

Results

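The liver X receptors and 6 of their target genes were followed in a human liver cell line after exposure to 3 plastic-related phenols. The 8 genes were taken as the rows of the gene count table whose Ensembl identifiers carry the symbols NR1H3, NR1H2, ABCA1, ABCG1, ABCG5, ABCG8, MYLIP and LPCAT3, out of 60230 genes in that table. Of these 8 genes, 7 passed the filter on low counts, which left 13404 genes for testing, and ABCG1 was listed at 0 in all 8 samples and was not tested.

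All samples came from HepG2, a line grown from a human liver tumour, in a derivative that overexpresses the cytochrome P450 enzyme CYP3A4 and was kept under blasticidin. The controls therefore carry the transgene too. Control cells received 0.2% DMSO. Treated cells received compound 4 (labelled metylcresol), compound 5 (labelled tetrabut) or compound 6 (labelled cyclohexil), each at its own IC50, for 24 h. mRNA was then sequenced from strand-specific libraries. Compounds 4 and 6 are both methylphenols joined by a methylene bridge, and they differ in the group beside the hydroxyl, which is tert-butyl in compound 4 and cyclohexyl in compound 6. Compound 5 has an ethylidene bridge and carries a further tert-butyl group on each ring where compounds 4 and 6 have methyl. Each of the 4 groups had 2 samples, numbered by the labels as day 1 and day 2 and called replicates 1 and 2 here. Replicate 1 of compounds 4 and 5 carries the word merged in its label, followed by S28S46 for compound 4 and S27S43 for compound 5. The other labels carry a single S number, and what these numbers stand for is not stated. Nothing beyond the day number says whether replicates came from separate cultures, so the p-values measure the spread between these samples, which may be technical.

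LXRα, encoded by NR1H3, and LXRβ, encoded by NR1H2, are nuclear receptors that bind DNA as partners of RXR and are switched on by oxysterols, the oxidised forms of cholesterol. When a cell holds too much cholesterol, they raise the genes that move sterols out of it: ABCA1 and ABCG1 pass cholesterol to lipoproteins, and ABCG5 and ABCG8 together form the transporter that moves sterols into bile. They also raise MYLIP, an E3 ubiquitin ligase (also called IDOL) that marks lipoprotein receptors for degradation, and LPCAT3, which builds polyunsaturated chains into membrane phospholipids. SREBP-2 is the opposite arm of the same control, since it raises cholesterol synthesis and uptake genes when sterols are low.

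LXR and RXR bind direct repeats of a short motif spaced by 4 bases, called DR4 elements. RefSeq windows of 250 bases before to 50 bases after a gene start were found for 7 of the 8 genes on GRCh38.p14, and ABCG1 had no entry. The windows were searched on both strands for 2 copies of GGTNA, each after any base, so that a copy spans 6 bases, with 4 bases between the copies. A match stood in 1 gene, ABCA1, at positions -69 to -54 from its RefSeq start, and 0.624% of the 35116 windows held one. The match is a description of the letters, and its use by a receptor in these cells was not measured. Elements outside the windows or with other letters were not searched for, so a gene without a match may still have some. It is shown because ABCA1 was called with compounds 4 and 5, with the match in capitals and 7 bases on each side, together with the stretch that precedes the first exon. MYLIP is shown because its change was the largest among the 7 genes. ABCG5 and ABCG8 start from opposite strands with 131 bases between their starts, and the part of that gap outside exons is shown because both genes border it. Stretches lie before or between the exons of GENCODE 29, apart from the match, and read 5′ to 3′ on the strand of the gene, and on the strand of ABCG8 for the shared gap.
ABCA1 match, chr9:104928202-104928231, minus strand: caggcttTGACCGATAGTAACCTctgcgct
ABCA1 upstream, chr9:104928238-104928405, minus strand: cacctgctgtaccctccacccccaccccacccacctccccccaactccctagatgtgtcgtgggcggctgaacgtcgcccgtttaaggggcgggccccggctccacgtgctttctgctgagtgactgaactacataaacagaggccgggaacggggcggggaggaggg
MYLIP upstream, chr6:16128836-16129085, plus strand: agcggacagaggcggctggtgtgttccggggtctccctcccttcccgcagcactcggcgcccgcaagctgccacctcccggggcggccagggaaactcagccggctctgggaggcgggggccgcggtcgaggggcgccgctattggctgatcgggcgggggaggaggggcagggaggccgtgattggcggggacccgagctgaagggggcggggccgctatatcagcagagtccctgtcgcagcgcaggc
ABCG5 to ABCG8 gap, chr2:43838866-43838963, plus strand: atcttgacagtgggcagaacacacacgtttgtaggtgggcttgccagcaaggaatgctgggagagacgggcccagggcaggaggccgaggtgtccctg

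The counts on genes ranged from 9472261 to 13308975 a sample, and mitochondrially encoded transcripts took 4.91% to 6.21% of them. Levels are given in CPM, which are counts scaled to the TMM-adjusted total of the tested genes, and 3 counts correspond to 0.234 to 0.313 CPM, a floor that covers counting error only. The 9 hepatocyte markers were all tested, and their summed level was 39540 to 41350 CPM in DMSO and 30900 to 37850 CPM with the compounds. Of 7 macrophage markers 2 were tested, CD14 and CD68, with a summed list level of 27.4 to 38.6 CPM in the controls, 57.2 to 58.9 under compound 4, 36.3 to 39.6 under compound 5 and 48.3 to 51.5 under compound 6, whereas PTPRC, CD163, CSF1R, MARCO and ITGAM were at 0. Both tested macrophage markers were higher with compound 4 by edgeR's test, 0 with compound 5 and 1 with compound 6. Over all tested genes, 6.5%, 13.9% and 2.8% were called higher with these compounds in turn. Of the hepatocyte markers, 1 rose and 3 fell with compound 4, 3 fell with compound 5 and 2 fell with compound 6. These counts stand beside 11.9%, 28.1% and 4.4% of all tested genes called with compounds 4, 5 and 6. The 3 endothelial markers were too low to test and summed to at most 2.06 CPM. Of 4 stellate cell markers 2 were tested, ACTA2 and PDGFRB, and the list summed to 17.5 to 21.6 CPM in the controls, 18.7 to 22.1 under compound 4, 10.7 to 11.6 under compound 5 and 18.3 to 19.8 under compound 6. PDGFRB rose with compound 4 (log2 fold change 1.80, adjusted p = 0.00864) and ACTA2 fell with compound 5 (-1.20, adjusted p = 0.000837) by edgeR's test. In each case the other tested marker lay the other way and was not called. ACTA2 measured 18.9 and 15.9 CPM in the controls and 13.4 and 12.4 under compound 4. PDGFRB measured 2.66 and 1.64 CPM in the controls and 4.58 and 2.67 under compound 5. DCN was at 0. Every sample was of the HepG2 line, so these lists give transcript levels in that line and not numbers of other cell types. The part of these shifts in the values of the LXR genes was not tested.

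In the control cells, LPCAT3 and ABCA1 were the members with the highest counts, and per kilobase of exon the order was set by LPCAT3. Its level in DMSO was 16.8 CPM per kilobase, ± 0.525 (SD, n = 2). ABCA1 (6.87 ± 1.20), NR1H2 (6.86 ± 0.907) and NR1H3 (5.80 ± 0.669 CPM per kilobase) followed and overlapped. Below them came MYLIP at 2.43 ± 0.776, ABCG5 at 1.40 ± 0.00762 and ABCG8 at 0.414 ± 0.00291 CPM per kilobase, none of which overlapped with its neighbours. With the length of the longest transcript in place of the exon union, the levels of NR1H2 (10.8) and NR1H3 (9.63 CPM per kilobase) lay above that of ABCA1 (7.43), so the order of these 3 genes depends on the length used. ABCG1 (chr21:42199689-42297244, plus strand) had no count in any sample. INSIG1, the sterol-sensing partner of the SREBP system, was also listed at 0 in all 8 samples, so both genes are only said to be listed at 0. A loss during quantification and absent expression cannot be told apart from this table, and no upper limit is given for either gene.

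Across the 3 compounds, few of the members moved, and those that did were ABCA1 with compounds 4 and 5 and MYLIP and NR1H2 with compound 5. In edgeR's quasi-likelihood test with Benjamini-Hochberg adjustment over all 13404 genes, compound 4 changed 1 of 7 members, which fell, where 11.9% of all genes were called (6.5% higher and 5.42% lower). Compound 5 changed 3 of 7, of which 1 rose and 2 fell, where 28.1% of all genes were called (13.9% higher and 14.2% lower). Compound 6 changed 0 of 7, where 4.4% of all genes were called (2.8% higher and 1.6% lower), although 1 member, NR1H3, had an unadjusted p under 0.05 and DESeq2 also called 0. These shares of members lie near or, for compound 5, somewhat above the background, and with 7 genes they say nothing particular about the list. The median log2 fold change of the 7 members took values of 0.07, -0.31 and 0.15 for compounds 4, 5 and 6 in turn, beside 0.00, -0.03 and 0.00 over all tested genes. The 3 comparisons share the DMSO samples. For compound 5 the balance of all calls depended on the scaling: with TMM, 49.3% of them were higher. The share was 36.6% for upper-quartile scaling and 33.3% for unscaled library sizes, and the median of all genes was then -0.12 and -0.14.

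**Figure D1:**
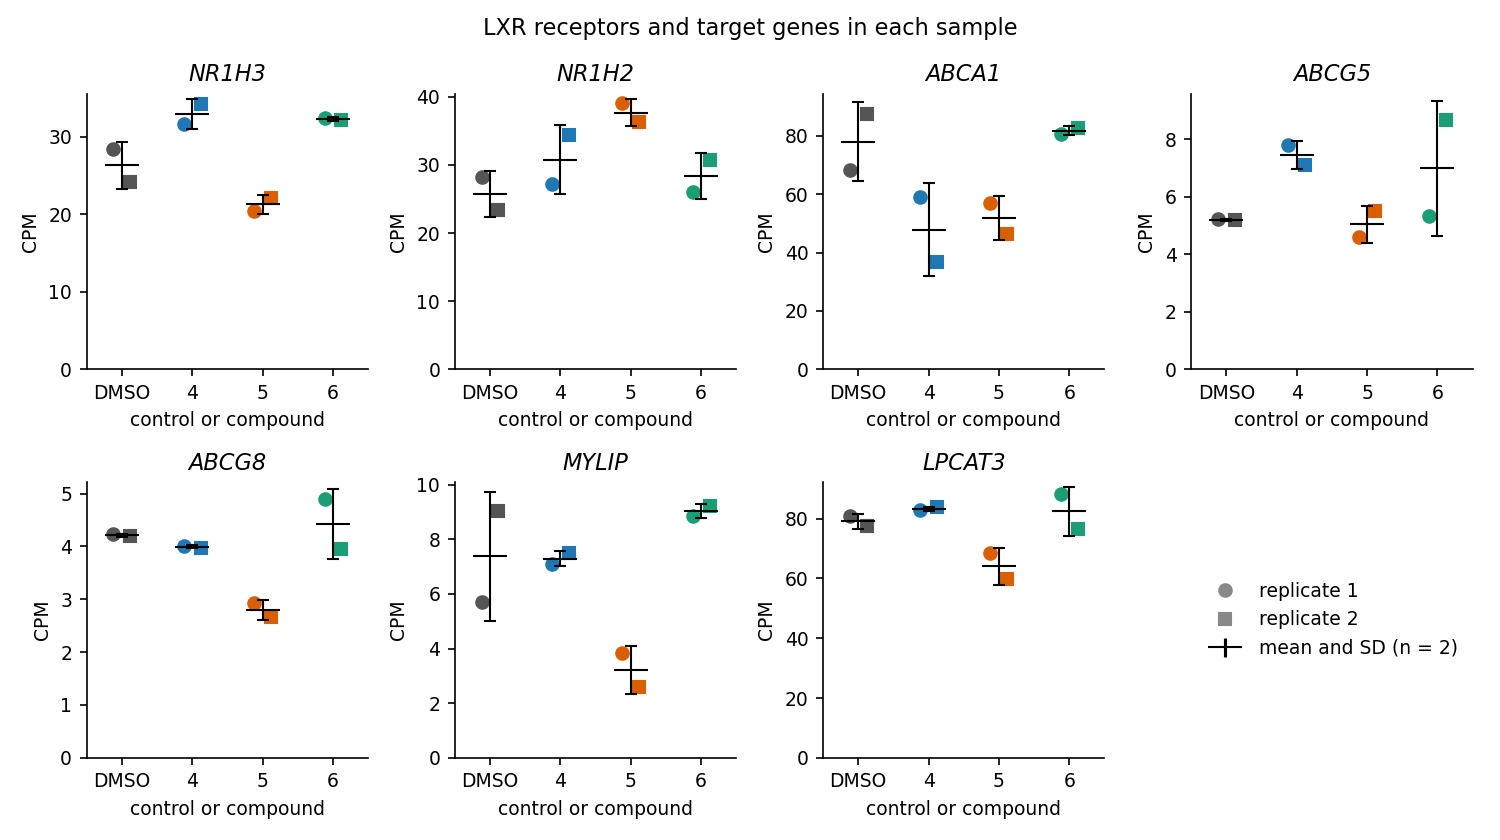
Level of each tested gene in CPM (y axis, from 0) in DMSO and with compounds 4, 5 and 6 (x axis), with circles for replicate 1, squares for replicate 2, and the mean and SD of the 2 replicates in black. ABCA1 is lower in all 4 samples of compounds 4 and 5 than in DMSO, and MYLIP and ABCG8 are lowest in the 2 samples of compound 5.

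Of the receptors, NR1H2 rose with compound 5 and NR1H3 was not called against DMSO with any compound. NR1H3 (chr11:47248300-47269032, plus strand) measured 28.5 and 24.2 CPM in the controls, 31.6 and 34.2 under compound 4, 20.3 and 22.1 under compound 5 and 32.4 and 32.1 under compound 6. Both samples of compound 5 lay below all others, and both samples of compounds 4 and 6 lay above DMSO. None of the 3 contrasts with DMSO passed edgeR's quasi-likelihood test. The log2 fold change was 0.33 with compound 4 (95% CI 0.04 to 0.61, adjusted p = 0.129), -0.30 with compound 5 (95% CI -0.59 to -0.01, adjusted p = 0.104) and 0.30 with compound 6 (95% CI 0.01 to 0.58, adjusted p = 0.229). By group mean the order was compound 5 (21.2), DMSO (26.3), compound 6 (32.3) and compound 4 (32.9 CPM), and the last pair overlapped. Under upper-quartile scaling and library size alone, the value with compound 5 was -0.39 and -0.41 and was called (adjusted p = 0.0484 and 0.0346).

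NR1H2 (chr19:50329653-50382982, plus strand), the widely expressed receptor, was highest with compound 5. It measured 28.2 and 23.3 CPM in the controls, 27.2 and 34.3 under compound 4, 39.0 and 36.3 under compound 5 and 26.0 and 30.8 under compound 6. The samples of compound 5 exceeded the other 6, while the values of DMSO overlapped with those of compounds 4 and 6. With compound 5 it rose by a log2 fold change of 0.55 (SE 0.16, 95% CI 0.21 to 0.89), which is 1.46-fold (edgeR's quasi-likelihood test, adjusted p = 0.0236). With compounds 4 and 6 the log2 fold change was 0.26 (95% CI -0.08 to 0.61) and 0.15 (95% CI -0.20 to 0.49), with adjusted p = 0.322 and 0.660. The call with compound 5 was lost without DMSO replicate 2 (0.44, adjusted p = 0.144), compound 5 replicate 1 (0.52, adjusted p = 0.114) and compound 5 replicate 2 (0.60, adjusted p = 0.0664).

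ABCA1 (chr9:104781002-104928237, minus strand), the transporter that loads cholesterol onto APOA1, was lower with compounds 4 and 5 and near the control level with compound 6. It measured 68.4 and 87.6 CPM in the controls, 59.1 and 36.7 under compound 4, 57.1 and 46.5 under compound 5 and 80.7 and 82.8 under compound 6. The 4 samples of compounds 4 and 5 lay below both DMSO samples, and those of compound 6 lay between them. With compound 4 it fell by 38.8%, a log2 fold change of -0.71 (SE 0.20, 95% CI -1.16 to -0.26, edgeR's quasi-likelihood test, adjusted p = 0.0457). With compound 5 it fell by 33.8%, a log2 fold change of -0.59 (SE 0.20, 95% CI -1.04 to -0.15, adjusted p = 0.0492). With compound 6 the log2 fold change was 0.07 (95% CI -0.37 to 0.51, adjusted p = 0.895), and it turned to -0.10 without DMSO replicate 1 and to -0.01 with the transcript-length correction described next.

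Both ABCA1 calls were close to the threshold. With the day number as a replicate block, adjusted p was 0.0524 with compound 4 and 0.0545 with compound 5, and neither was called. The compound 4 call was also lost in the fit of compound 4 and DMSO alone (adjusted p = 0.0831), and the compound 5 call under RLE scaling (adjusted p = 0.0582). The call with compound 4 held when compound 4 replicate 1 was left out (log2 fold change -1.09, adjusted p = 0.00333) and was lost without compound 4 replicate 2 (-0.39, adjusted p = 0.176). It was also lost without DMSO replicate 1 (-0.87, adjusted p = 0.0678), DMSO replicate 2 (-0.52, adjusted p = 0.310) and each replicate of compounds 5 and 6 (-0.71 to -0.70, adjusted p = 0.0604 to 0.0715). The call with compound 5 held without either replicate of compound 4 and was lost without DMSO replicate 1 (-0.76, adjusted p = 0.0650) or 2 (-0.38, adjusted p = 0.298). It was also lost without compound 5 replicate 1 (-0.72, adjusted p = 0.103), compound 5 replicate 2 (-0.45, adjusted p = 0.248) and either replicate of compound 6 (-0.57, adjusted p = 0.0764 and 0.0761). The direction was the same in all 16 of these fits. Each of them left 1 sample in a group and took the spread from the other groups, so a call kept there is not added support.

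ABCA1 has a long transcript, of 10494 bases, and the gaps between replicates followed transcript length in these libraries. Among the 487 tested genes with a transcript of at least 10000 bases, the median log2 ratio of replicate 2 to replicate 1 was 0.20 for the controls, -0.44 for compound 4, -0.15 for compound 5 and 0.08 for compound 6. For ABCA1 itself the ratio was 0.36, -0.69, -0.30 and 0.04 in the same order, so its sign was that of the long genes in every group. The 726 genes with a transcript under 1000 bases had medians of -0.12, 0.18, -0.00 and -0.07. When the trend with length was taken out of each library, the 2 ABCA1 values became 75.0 and 85.3 CPM in the controls, 56.6 and 45.9 under compound 4, 50.2 and 44.5 under compound 5 and 80.3 and 78.7 under compound 6. The samples of compounds 4 and 5 were again below both controls, and the spread within the groups was narrower. In that fit, which was added after the data had been seen, ABCA1 fell with compound 4 (log2 fold change -0.65, SE 0.12, adjusted p = 0.00484) and with compound 5 (-0.76, SE 0.12, adjusted p = 0.000948) in edgeR's quasi-likelihood test.

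**Figure D2:**
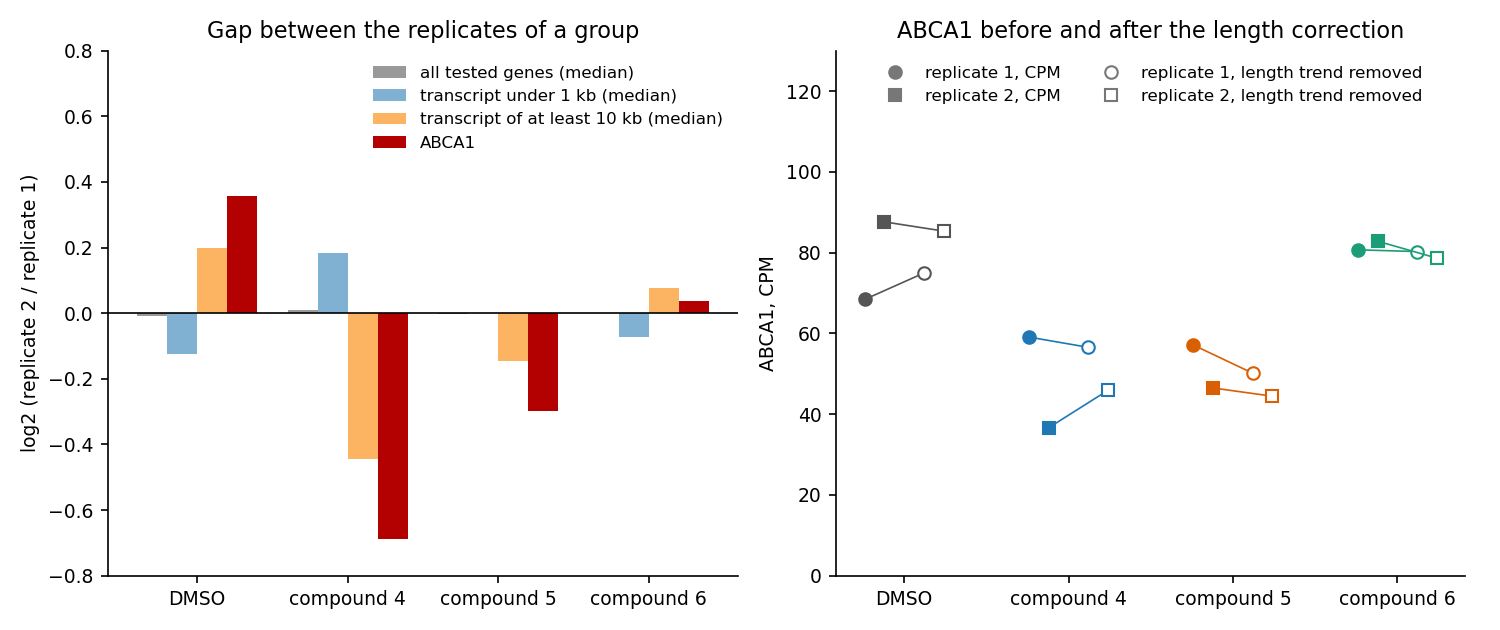
Left, log2 ratio of replicate 2 to replicate 1 (y axis) in each group for ABCA1 and as the median of all tested genes, of 726 genes with transcripts under 1 kb and of 487 genes with transcripts of at least 10 kb. Right, ABCA1 in CPM (y axis, from 0) for each replicate before (filled) and after (open) the trend with transcript length was removed, where the compound 4 samples move closer together, to 56.6 and 45.9 CPM.

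The 3 tested genes whose log2 CPM followed ABCA1 most closely over the 8 samples, among 12680 genes compared, were DYNC2H1 (Pearson r = 0.988), ACACA (0.981) and SMARCA2 (0.970). Their longest transcripts measured 13678, 9961 and 7061 bases. These values describe 8 libraries that share groups and the length trend above, and carry no test.

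ABCG5 and ABCG8 (chr2:43812472-43838865, minus strand, and chr2:43831942-43882987, plus strand) form the sterol exporter of the bile canaliculus as a pair, and neither was called with any compound. ABCG5 measured 5.22 and 5.18 CPM in the controls, 7.78 and 7.10 under compound 4, 4.58 and 5.50 under compound 5 and 5.32 and 8.65 under compound 6, from 50 to 105 counts. The samples of compound 4 lay above DMSO, those of compound 5 spanned it, and those of compound 6 lay far apart. The log2 fold change was 0.52 with compound 4 (95% CI -0.03 to 1.06), -0.04 with compound 5 (95% CI -0.60 to 0.52) and 0.44 with compound 6 (95% CI -0.11 to 0.99), with adjusted p = 0.206, 0.923 and 0.359 in edgeR's quasi-likelihood test. The value with compound 5 turned to 0.02 with the length correction.

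ABCG8 measured 4.23 and 4.19 CPM in the controls, 4.02 and 3.98 under compound 4, 2.93 and 2.67 under compound 5 and 4.90 and 3.95 under compound 6, from 32 to 51 counts. The 2 samples of compound 5 were the lowest of the 8, and the other groups lay within a narrow range. With compound 5 the log2 fold change was -0.59 (95% CI -1.14 to -0.03), at an unadjusted p = 0.0393 and an adjusted p = 0.102 in edgeR's quasi-likelihood test. With compounds 4 and 6 it was -0.07 (95% CI -0.61 to 0.46) and 0.06 (95% CI -0.47 to 0.60), with adjusted p = 0.878 and 0.918. The 2 genes overlap on opposite strands, and 3.81% of the 31-base words in ABCG8 transcripts also occur in transcripts of other genes. The strand setting of the counting was not given in the sources used here.

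MYLIP (chr6:16129125-16148248, plus strand) had the largest change of the 7 members. It measured 5.71 and 9.04 CPM in the controls, 7.10 and 7.49 under compound 4, 3.85 and 2.59 under compound 5 and 8.86 and 9.22 under compound 6, from 33 to 112 counts. Both samples of compound 5 were below the other 6, and the DMSO samples enclosed those of compound 4. With compound 5 it fell by 57.0%, a log2 fold change of -1.22 (SE 0.27, 95% CI -1.81 to -0.62, edgeR's quasi-likelihood test, adjusted p = 0.00802). With compound 4 the log2 fold change was -0.03 (95% CI -0.57 to 0.51, adjusted p = 0.960), and with compound 6 it was 0.28 (95% CI -0.25 to 0.82, adjusted p = 0.569). The call with compound 5 was lost without DMSO replicate 2 (-0.81, adjusted p = 0.0931) and without compound 5 replicate 2 (-0.95, adjusted p = 0.0713). Its log2 CPM over the 8 samples was among the closest to that of MTRF1 (Pearson r = 0.968) and FAM86JP (0.967), again with no test.

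LPCAT3 (chr12:6976186-7018510, minus strand), the acyltransferase that LXR uses to keep membranes fluid, varied little. It measured 80.9 and 77.4 CPM in the controls, 82.9 and 83.8 under compound 4, 68.5 and 59.7 under compound 5 and 88.2 and 76.6 under compound 6. Only compound 5 stood apart, with both samples below the other 6. Its log2 fold change there was -0.31 (95% CI -0.56 to -0.05, adjusted p = 0.0689), and it was 0.07 (95% CI -0.18 to 0.33, adjusted p = 0.725) with compound 4 and 0.06 (95% CI -0.20 to 0.31, adjusted p = 0.839) with compound 6 in edgeR's quasi-likelihood test. The value with compound 5 was called under upper-quartile scaling (-0.39, adjusted p = 0.0299), with library size alone (-0.41, adjusted p = 0.0216) and in the fit of compound 5 and DMSO alone (-0.28, adjusted p = 0.0393).

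**Figure D3:**
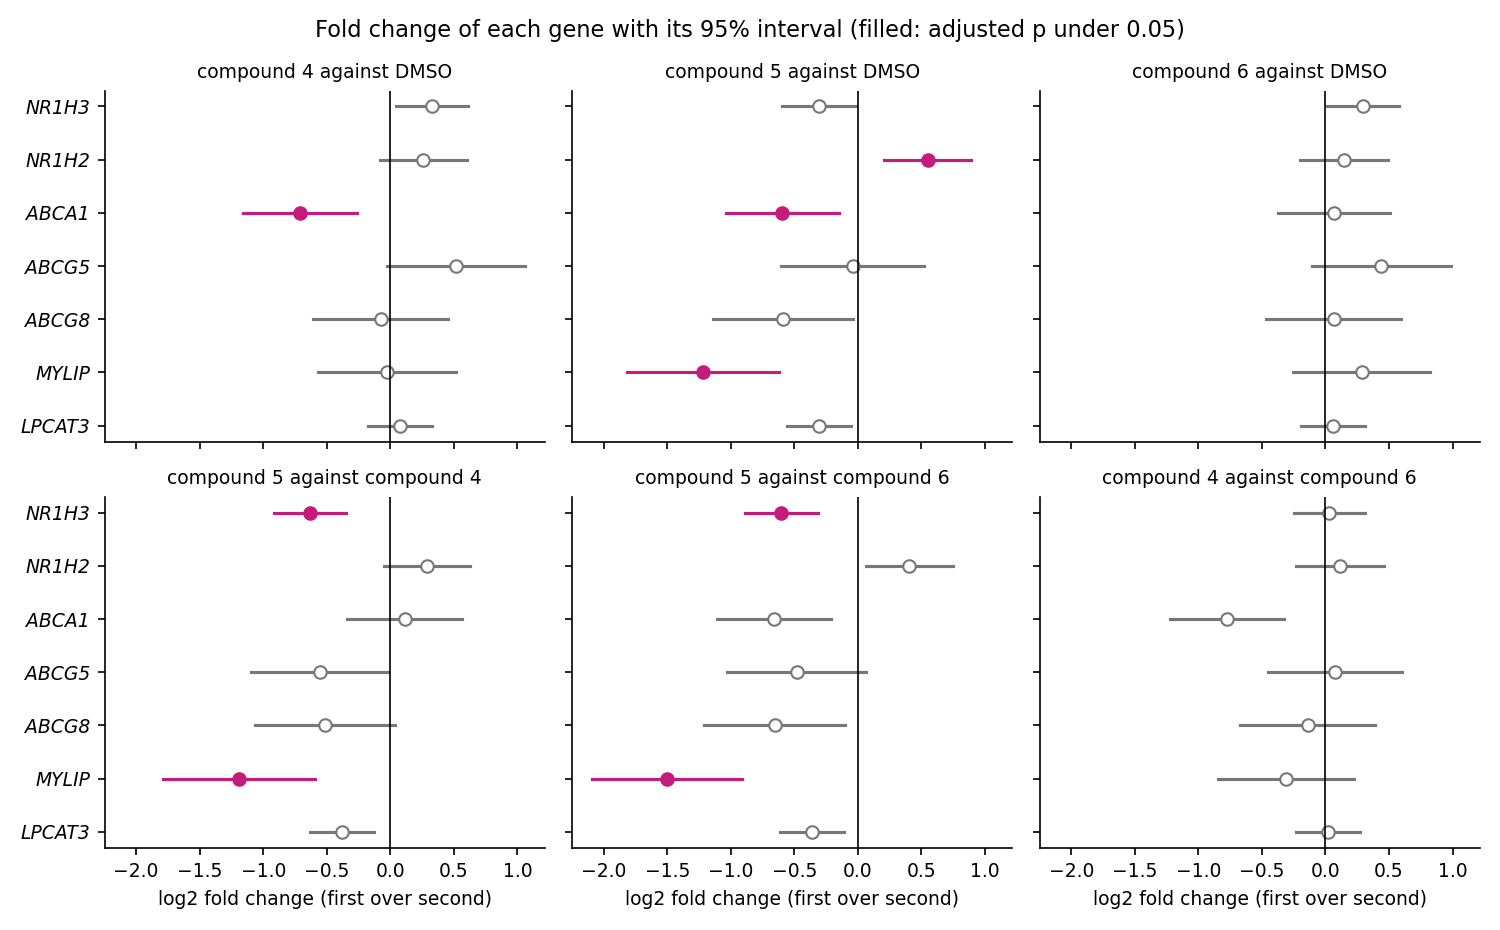
Log2 fold change (x axis) of each tested gene (y axis) in the 6 comparisons, with points for the estimate and lines for the 95% interval of edgeR's fit, filled where the adjusted p was under 0.05. Against DMSO, compound 4 has 1 filled point (ABCA1), compound 5 has 3 (NR1H2, ABCA1 and MYLIP) and compound 6 has 0, and compound 5 against compounds 4 and 6 has NR1H3 and MYLIP filled.

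The compounds were then compared with each other, each at its own IC50, so these are differences between treatments and not between equal doses. Compound 5 differed from compound 4 in 2 of 7 members, both lower, where 13.9% of all genes were called (6.91% higher and 7.04% lower). The higher share of those calls was 49.5% by TMM, 33.0% by the upper quartile, 31.3% by library size and 63.8% by DESeq2. NR1H3 was lower by a log2 fold change of -0.63 (SE 0.13, 95% CI -0.92 to -0.34, adjusted p = 0.0150) and MYLIP by -1.19 (SE 0.27, 95% CI -1.78 to -0.59, adjusted p = 0.0206) in edgeR's quasi-likelihood test. Each of these calls was lost without compound 4 replicate 2 (-0.56 and -1.14, adjusted p = 0.0628 and 0.0720), compound 5 replicate 1 (-0.55 and -1.47, adjusted p = 0.118 and 0.0641) and compound 5 replicate 2 (-0.69 and -0.92, adjusted p = 0.0790 and 0.137). LPCAT3 lay at the threshold, with -0.38 (95% CI -0.63 to -0.13, adjusted p = 0.0502), and was called with the replicate block (adjusted p = 0.0478), under upper-quartile scaling (-0.45, adjusted p = 0.0321), with library size alone (-0.45, adjusted p = 0.0295) and among genes with at least 10 counts in every sample (adjusted p = 0.0452). For the other members no difference was called, and the 95% CI was -0.05 to 0.63 for NR1H2, -0.34 to 0.57 for ABCA1, -1.09 to -0.02 for ABCG5 and -1.07 to 0.04 for ABCG8. ABCA1, which fell with both compounds, had a difference of 0.11, which was -0.12 with the length correction, -0.18 without compound 4 replicate 2 and -0.02 without compound 5 replicate 1.

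Compound 5 differed from compound 6 in the same 2 members, both lower, where 9.91% of all genes were called (4.76% higher and 5.16% lower). The higher share of those calls was 48.0% by TMM, 28.7% by the upper quartile, 28.4% by library size and 60.6% by DESeq2. NR1H3 was lower by a log2 fold change of -0.60 (SE 0.13, 95% CI -0.89 to -0.31, adjusted p = 0.0182) and MYLIP by -1.50 (SE 0.27, 95% CI -2.09 to -0.91, adjusted p = 0.00920) in edgeR's quasi-likelihood test. The samples of the 2 groups did not overlap in either gene. The NR1H3 call was lost without either replicate of compound 5 (-0.53 and -0.66, adjusted p = 0.147 and 0.0805) or of compound 6 (-0.60 and -0.59, adjusted p = 0.0986 and 0.0580). The MYLIP call was lost without compound 5 replicate 2 (-1.23, adjusted p = 0.0766) or compound 6 replicate 1 (-1.53, adjusted p = 0.0523). ABCA1 had a difference of -0.66 (95% CI -1.11 to -0.21) that missed the threshold (adjusted p = 0.0633) and was called with DESeq2 (-0.64, adjusted p = 0.0242) and with the length correction (-0.75, adjusted p = 0.00338). It was also called under upper-quartile scaling and library size alone (-0.74 in both), without the filter, in the groups compared alone and without either replicate of compound 4. NR1H2 had a difference of 0.40 (95% CI 0.06 to 0.74, adjusted p = 0.121), which the length correction called (0.48, adjusted p = 0.0395). The intervals were -1.03 to 0.07 for ABCG5, -1.21 to -0.10 for ABCG8 and -0.62 to -0.11 for LPCAT3, none called in the fit reported here. LPCAT3 was called under upper-quartile scaling (-0.44, adjusted p = 0.0379) and with library size alone (-0.44, adjusted p = 0.0352).

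Compounds 4 and 6, which differ by tert-butyl against cyclohexyl groups, differed in 0 of 7 members, where 0.0448% of all genes were called (0.0224% higher and 0.0224% lower). That comparison holds 6 called genes in all 13404 by edgeR's quasi-likelihood test, 1 member had an unadjusted p under 0.05, and DESeq2 called 1 member. That member was ABCA1, lower with compound 4 than with compound 6 by a log2 fold change of -0.77 (95% CI -1.22 to -0.33, unadjusted p = 0.00297, adjusted p = 0.281 in edgeR and 0.0299 in DESeq2). The samples of the 2 groups did not overlap, with 59.1 and 36.7 CPM against 80.7 and 82.8 CPM. With 1 sample left out, the log2 fold change ranged from -1.16 to -0.47. The value of -1.16 came without compound 4 replicate 1 and so rests on the lower compound 4 sample alone. For the receptors the 95% CI of the difference was -0.25 to 0.31 for NR1H3 and -0.23 to 0.46 for NR1H2. It was -0.45 to 0.60 for ABCG5, -0.67 to 0.39 for ABCG8, -0.84 to 0.22 for MYLIP and -0.23 to 0.27 for LPCAT3, so a change of 1.5-fold in ABCG5, ABCG8 or MYLIP lies within what these data allow.

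The remainder of the LXR pathway was read from lists around the members, and each count stands against the 11.9%, 28.1% and 4.4% of all tested genes called with compounds 4, 5 and 6. Of 16 partners and cofactors of LXR, 15 were tested, with 0 called for compounds 4 and 6 and 2 for compound 5, both higher. The count for compound 5 was 4 and 5 without compound 4 replicate 1 and 2, 5 without the filter and in the fit of compound 5 and DMSO alone, and 1 without compound 5 replicate 2. It was 0 with the replicate block, when scaled by library size alone or by the upper quartile, and without either replicate of DMSO, compound 5 replicate 1 or either replicate of compound 6. With the transcript-length correction, 3 were higher and 1 lower with compound 5. The count for compound 4 was 4 without compound 4 replicate 1 and 1 with the length correction, with DESeq2, by the upper quartile and without the filter, in each case lower. 1 of the 2 called with compound 5 was NCOA6, a coactivator, with 64.5 to 80.3 CPM in the controls and 105 to 116 under compound 5 (log2 fold change 0.61, adjusted p = 0.0492 by edgeR's quasi-likelihood test). Its call was lost with the replicate block (0.60, adjusted p = 0.0651), under upper-quartile scaling (0.53, adjusted p = 0.0697) and with library size alone (0.51, adjusted p = 0.0950). It was also lost without DMSO replicate 1 (0.46, adjusted p = 0.271) or 2 (0.80, adjusted p = 0.0678), compound 5 replicate 1 (0.57, adjusted p = 0.192) or 2 (0.68, adjusted p = 0.104), and either replicate of compound 6 (0.64). RXRA, the shared DNA-binding partner, was not called, with log2 fold changes of 0.01, -0.06 and -0.24 for compounds 4, 5 and 6, of which the first turned to -0.01 under upper-quartile scaling and -0.03 with library size alone.

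Of 21 other known LXR targets, 15 were tested. With compound 4, 2 rose and 3 fell, with compound 5, 2 rose and 4 fell, and with compound 6, 2 rose and 1 fell. These are 5, 6 and 3 of 15, beside 11.9%, 28.1% and 4.4% of all genes. The count for compound 6 was 0 without DMSO replicate 1, DMSO replicate 2 or compound 6 replicate 2, 1 without either replicate of compound 5 and 5 without the filter, and that for compound 4 was 8 without compound 4 replicate 1. With compound 4, 4 were higher with DESeq2, without the filter, with the length correction and without compound 4 replicate 1, and 3 among genes with at least 10 counts in every sample. With compound 5, 1 was higher without DMSO replicate 1 or compound 5 replicate 1. The median log2 fold change was -0.01, -0.19 and -0.06. SCD, FASN and PNPLA3 fell with compounds 4 and 5. SCD, which makes monounsaturated fatty acids, fell from 1650 to 1672 CPM in DMSO to 811 to 928 CPM (log2 fold change -0.93, adjusted p = 0.00453) and 599 to 642 CPM (-1.42, adjusted p = 0.000268). FASN, the fatty acid synthase, fell with log2 fold changes of -0.76 (adjusted p = 0.00152) and -0.72 (adjusted p = 0.000707), in edgeR's quasi-likelihood test. PNPLA3 fell with all 3 compounds (-1.58, -1.95 and -0.74). NR0B2, which encodes the corepressor SHP, rose with all 3 (1.09, 1.31 and 0.73). Their compound 6 calls were lost without DMSO replicate 1 (-0.87 for PNPLA3 and 0.79 for NR0B2), DMSO replicate 2 (-0.58 and 0.67) or compound 6 replicate 2 (-0.60 and 0.57), and that of PNPLA3 also without compound 5 replicate 1 (-0.72) or 2 (-0.74). ACSL3, which activates fatty acids, rose with compounds 5 (0.47, adjusted p = 0.00781) and 6 (0.47, adjusted p = 0.0327), and the compound 5 call was lost without DMSO replicate 1 or compound 5 replicate 1. The compound 6 call was lost without DMSO replicate 1 (0.46) or 2 (0.48), either replicate of compound 5 (0.49 and 0.47) or compound 6 replicate 2 (0.38). The remaining calls were SMPDL3A, higher with compound 4 (0.68), and TMEM135, lower with compound 5 (-0.56), both named after their values were seen. The SMPDL3A call was lost without either replicate of DMSO, without compound 4 replicate 2 and in the fit of compound 4 and DMSO alone, where NR0B2 was the 1 gene called higher with compound 4. SREBF1, the LXR target that drives lipogenesis, was not called, with 0.28, -0.02 and 0.30 (adjusted p = 0.117, 0.902 and 0.146), and its value with compound 5 lay between 0.00 and 0.01 with DESeq2, with RLE scaling, without the filter and in the fit of compound 5 and DMSO alone.

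MYLIP acts on lipoprotein receptors. Of 10 substrates and partners, all tested, 0 rose and 1 fell with compound 4. With each of compounds 5 and 6, 2 rose and 1 fell, and with the replicate block 1 rose and 1 fell with compound 6. With compound 4, 2 rose and 1 fell with the transcript-length correction, and with compound 6 the count was 0 without DMSO replicate 1, DMSO replicate 2 or compound 6 replicate 2. VLDLR, which takes up triglyceride-rich lipoproteins and is a substrate of MYLIP, measured 8.96 and 9.37 CPM in the controls, 11.4 and 11.9 under compound 4, 22.5 and 23.6 under compound 5 and 15.1 and 23.0 under compound 6. All treated samples lay above the controls. These are RNA levels, whereas MYLIP marks the receptor proteins, which were not measured here. It rose with compound 5 (log2 fold change 1.33, adjusted p = 0.000819) and compound 6 (1.06, adjusted p = 0.0156) in edgeR's quasi-likelihood test. The call with compound 6 was lost without DMSO replicate 1 (1.03, adjusted p = 0.111) or 2 (1.10, adjusted p = 0.142) and without compound 6 replicate 2 (0.73, adjusted p = 0.150).

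The list that moved most was that of SREBP-2 targets and machinery. Of its 20 genes 19 were tested, INSIG1 being at 0, and 15 fell with compound 4, 17 with compound 5 and 13 with compound 6, while 0 rose. The median log2 fold change was -0.97, -1.27 and -0.72, beside 0.00, -0.03 and 0.00 over all genes. The lowest values were those of MSMO1 (-2.26), FDFT1 (-2.26) and IDI1 (-2.13), enzymes of the synthesis pathway, with compound 5. HMGCS1, an early enzyme of that pathway, measured 149 and 148 CPM in the controls, 44.5 and 50.2 under compound 4, 46.7 and 47.7 under compound 5 and 83.2 and 66.2 under compound 6. It fell with each (log2 fold change -1.65, -1.66 and -0.996), and the compound 6 call was lost without DMSO replicate 2 (-0.998, adjusted p = 0.0818). The count for compound 6 was 9 with the replicate block, 4 without DMSO replicate 1, 0 without DMSO replicate 2 and 3 without compound 6 replicate 2.

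Among 14 enzymes that make or remove sterol ligands, 9 were tested. Of these, 4 fell with compound 4, 5 fell and 2 rose with compound 5, and 2 fell with compound 6. With DESeq2, 3 fell with compound 4, 4 fell and 1 rose with compound 5, and 3 fell with compound 6. The count for compound 6 was 0 without either replicate of DMSO, either replicate of compound 5 or compound 6 replicate 2 and 1 with the replicate block, and that for compound 4 was 1 without DMSO replicate 2. DHCR7, which makes cholesterol from its direct precursor, fell with all 3 compounds (log2 fold change -1.06, -1.47 and -0.62). The compound 6 call was lost with the replicate block (adjusted p = 0.0630), without DMSO replicate 1 (-0.56) or 2 (-0.66), either replicate of compound 5 (-0.60 and -0.62) and compound 6 replicate 2 (-0.39). CYP3A4, the overexpressed enzyme, also hydroxylates cholesterol, and its gene count does not separate the transgene from the cells' own gene. CYP3A4 measured 198 to 207 CPM in DMSO and 371 to 421 under compound 5, where it rose (0.97, adjusted p = 0.000723). It was not called with compound 4 (0.31, adjusted p = 0.162) or compound 6 (-0.25, adjusted p = 0.344) in edgeR's quasi-likelihood test, and without compound 4 replicate 2 the former was called (0.52, adjusted p = 0.0163).

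APOA1, the acceptor that ABCA1 loads, fell with all 3 compounds, from 2754 to 3150 CPM in DMSO to 1589 to 2154 under compound 4 (log2 fold change -0.66, adjusted p = 0.0312), 1609 to 1836 under compound 5 (-0.78, adjusted p = 0.00757) and 1510 to 2018 under compound 6 (-0.74, adjusted p = 0.0375), in edgeR's quasi-likelihood test. The calls with compounds 4 and 6 were lost without DMSO replicate 1 (-0.56 and -0.64) or 2 (-0.75 and -0.83), and that with compound 4 without compound 4 replicate 1 (-0.45). That with compound 6 was also lost with the replicate block (adjusted p = 0.0576), without either replicate of compound 5 (-0.73 and -0.74) and without compound 6 replicate 2 (-0.54). Of the 19 acceptor and sterol handling genes, APOA1 among them, 16 were tested: 2 rose and 4 fell with compound 4, 3 rose and 5 fell with compound 5, and 1 rose and 2 fell with compound 6, beside 11.9%, 28.1% and 4.4% of all genes. With compound 4, 2 rose and 0 fell without DMSO replicate 1, 0 were called without DMSO replicate 2, 2 rose and 1 fell without compound 4 replicate 1, and 1 rose and 2 fell without compound 4 replicate 2. With compound 5, 1 rose and 4 fell without DMSO replicate 1. With compound 6, 0 were called without DMSO replicate 1, DMSO replicate 2 or compound 6 replicate 2, and 1 rose and 1 fell with the replicate block and without either replicate of compound 5, while 3 rose and 2 fell with the transcript-length correction. APOM, a carrier in high-density lipoprotein, fell with compound 5 (37.0 to 44.0 CPM against 72.7 to 89.8 CPM in the controls, log2 fold change -1.001, adjusted p = 0.00106). It also differed between compound 5 and compounds 4 (-0.78, adjusted p = 0.0117) and 6 (-0.96, adjusted p = 0.00512).

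Relatives of the members were read in the same way. Of 10 other ABCA and ABCG transporters 5 were tested, with 1 called for compound 4 and 2 for compound 5, beside 11.9% and 28.1% of all genes: ABCA3 rose with compound 4 (0.54, adjusted p = 0.0287), and ABCA7 (-0.76, adjusted p = 0.00377) and ABCA2 (-0.52, adjusted p = 0.0186) fell with compound 5, by edgeR's quasi-likelihood test. With compound 6, 0 were called, and 1 was higher without the filter, in the fit of compound 6 and DMSO alone, with the length correction and without either replicate of compound 4. With compound 4 the count was 2, both higher, without the filter, with the replicate block, with the length correction and without compound 4 replicate 2. The ABCA3 call was lost without DMSO replicate 1 (0.62) or 2 (0.47) and without compound 4 replicate 1 (0.35) and in the fit of compound 4 and DMSO alone (adjusted p = 0.0633). The ABCA7 call was lost without compound 5 replicate 1 (-0.63), and the ABCA2 call without DMSO replicate 2 (-0.33) or either replicate of compound 5 (-0.57 and -0.44). Of 7 other lysophospholipid acyltransferases 4 were tested, with 2 called for compound 4, beside 11.9% of all genes: LPCAT4 rose (0.59, adjusted p = 0.0119) and LCLAT1 fell (-0.53, adjusted p = 0.0351) with compound 4, and 0 were called with compounds 5 and 6. For compound 5, 1 was lower with library size alone, and for compound 6, 1 was higher with the length correction and without compound 4 replicate 2. The LPCAT4 call was lost without DMSO replicate 1 (0.58) or 2 (0.60), and the LCLAT1 call without DMSO replicate 1 (-0.65) or 2 (-0.39), compound 4 replicate 2 (-0.42) and either replicate of compound 5 (-0.52 and -0.53), and in the fit of compound 4 and DMSO alone (adjusted p = 0.0685).

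**Figure D4:**
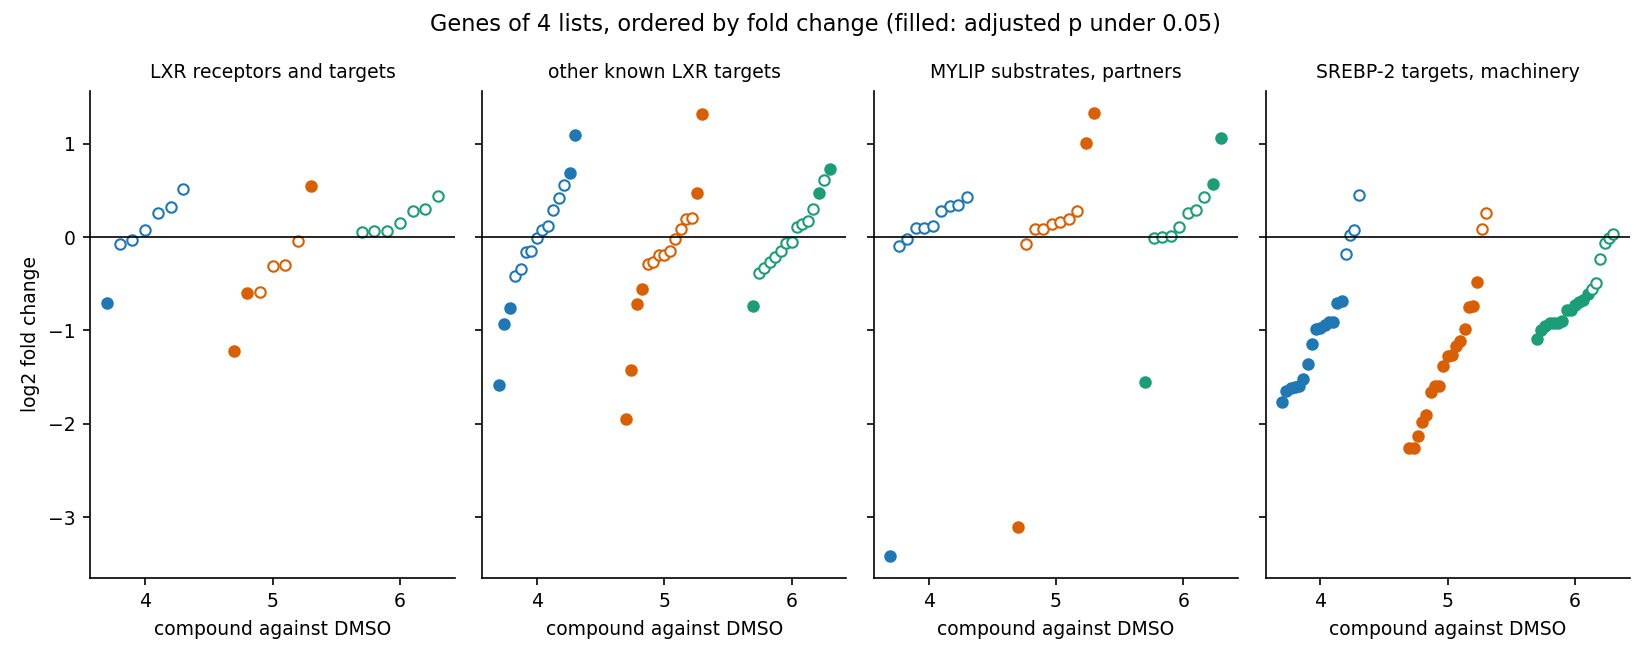
Log2 fold change against DMSO (y axis) of the tested genes of 4 lists with compounds 4, 5 and 6 (x axis), each point a gene, ordered by its value within a compound and filled where the adjusted p was under 0.05. Of the 7 LXR receptors and targets, 4, 1 and 7 lie above 0 with compounds 4, 5 and 6 (medians 0.07, -0.31 and 0.15), and of the 19 genes of the SREBP-2 list 3, 2 and 1 do (medians -0.97, -1.27 and -0.72).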

How the data were processed

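RNA was sequenced from 8 samples in 4 groups of 2. Per the labels and methods, the authors checked reads with FastQC 0.12.0, estimated transcript abundance with Salmon 1.5.0 on a GENCODE index (GRCh38) and summed it to genes. The deposited values are estimated counts, given as whole numbers. They tested with DESeq2 1.38.3. Of 60230 identifiers, 60089 matched a symbol. The lists and members were chosen with earlier results of these data known.

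Counts were tested in R 4.3.3 with edgeR 4.0.16 (filterByExpr with a minimum count of 10, TMM scaling, quasi-likelihood test of all 8 samples in 4 groups without a block) and Benjamini-Hochberg adjustment, with calls at an adjusted p under 0.05. The smallest two-sided p of an exact permutation test of 2 against 2 is 0.333, so none was used. Further genes could be named if they were among the 4 largest called changes of a list with a compound at a mean of at least 1 CPM. SREBF1, RXRA, CYP3A4, INSIG1 and the 3 genes most like ABCA1 and MYLIP over the 8 samples were to be named in any case. Some genes that the rule names are not reported here. The test was tried on simulated counts first. Alternatives were DESeq2 1.42.0, other scalings, filters and thresholds, the groups compared alone, the day number as a block, each sample left out and, added after the data had been seen, a correction for transcript length. Deviations from the group means of samples with the same day number correlated between -0.0826 and 0.16 in 6 pairs of groups, so the pairing rests on the label alone. Gene positions are from GENCODE 29 on GRCh38, whose release differs from the index, and promoters from RefSeq on GRCh38.p14. Replicates differed by more than counting noise and were kept as separate samples.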

Additional observations from a re-analysis of the deposited data

How the results depend on the processing

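With 2 samples a group, the calls of LXR genes depended on single libraries. When each sample was left out in turn, the members called ranged from 0 to 1 for compound 4, 0 to 3 for compound 5, 0 to 2 for compound 5 against compound 4, 0 to 3 for compound 5 against compound 6 and 0 to 1 for compound 4 against compound 6, and stayed at 0 for compound 6. For compound 4 the count of 1 became 0 with the replicate block, in the fit of the groups compared alone and at an adjusted p under 0.01. At that threshold the counts were 1 for compound 5, 0 for compound 5 against compound 4 and 1 for compound 5 against compound 6. Upper-quartile scaling and library size alone gave 5 for compound 5 and 4 for compound 5 against compound 6, which was also 4 with the length correction, and compound 4 against compound 6 gave 1 with DESeq2 and without the filter. The cause was not tested. The replicate block moved no other count of members called by over 1.5 times.

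Values near 0 changed sign. The length correction gave 0.022 for ABCG5 with compound 5, -0.015 for ABCA1 with compound 6, -0.12 for ABCA1 in compound 5 against compound 4, and -0.0082 for NR1H3 and -0.010 for LPCAT3 in compound 4 against compound 6. RXRA with compound 4 was -0.0060 and -0.026 under upper-quartile scaling and library size alone. SREBF1 with compound 5 was 0.0015 with DESeq2, 0.0013 with RLE scaling, 0.0084 without the filter and 0.0048 in the groups compared alone. With a sample left out, the range was -0.31 to 0.35 for MYLIP with compound 4, -0.18 to 0.11 for ABCG5 and -0.093 to 0.074 for SREBF1 with compound 5, -0.099 to 0.26 for ABCA1, -0.064 to 0.23 for ABCG8 and -0.020 to 0.16 for LPCAT3 with compound 6, and -0.18 to 0.50 for ABCA1 in compound 5 against compound 4. In compound 4 against compound 6 it was -0.036 to 0.086 for NR1H3, -0.070 to 0.27 for NR1H2, -0.24 to 0.48 for ABCG5 and -0.083 to 0.10 for LPCAT3. Genes called in compound 4 against compound 6 numbered 6, 72 with DESeq2 and 294 without the filter. ABCG5, ABCG8 and MYLIP rest on 32 to 112 counts a sample, which limits the precision of their fold changes.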
